A study of Mus musculus with 6 samples.

Results

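The neutrophil granule and surface genes described here are 10 genes, Ltf, Lcn2, Camp, Ngp, S100a8, S100a9, Mmp8, Mmp9, Cd177 and Csf3r, taken by their symbols from the 20240 genes tested on whole-lung arrays. Each gene was represented by its brightest probe, and all 10 were well above background on each of the 6 arrays. The lungs came from naïve male mice aged 8 weeks, 3 with a knockout of Nogo-A and Nogo-B (KO, lungs 1, 11 and 12) and 3 wild types (WT, lungs 11, 12 and 13), which the design text calls individual biological replicates. Nogo-A and Nogo-B are proteins made from the reticulon gene Rtn4, and the series was titled as a study of Nogo in asthma. The strain and the construction of the allele are not given in the sources used here. Total RNA of each lung was labelled with Cy3 and hybridised to an Agilent mouse array of 60-base probes, 1 lung to an array. All levels below are log2 processed signals relative to the array's 75th percentile, so that a difference of -1 is a 2-fold lower signal.

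Neutrophils are short-lived white cells of the marrow and blood, and the lung's capillaries hold a large pool of them. Their granules are filled in order during maturation, with primary granule proteins made first in promyelocytes, specific granule proteins next in myelocytes and metamyelocytes, and gelatinase granule proteins later, while surface receptors and the cytosolic S100 proteins remain abundant in the mature cell. The members were therefore read in 2 classes. Ltf, Lcn2, Camp and Ngp encode specific granule proteins that are transcribed mainly in marrow precursors. S100a8, S100a9, Mmp8, Mmp9, Cd177 and Csf3r were grouped as genes of late or circulating neutrophils, although Cd177 is also found on precursors. The names precursor and mature below are labels of this grouping, which was not tested in these lungs. In whole lung, fewer cells of a type and less RNA per cell cannot be told apart.

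The brightest Rtn4 probe had levels of 1.1, -0.71 and -1.79 in KO lungs 1, 11 and 12, against 1.69, 1.62 and 2.36 in WT lungs 11, 12 and 13, so KO 1 lay nearest to the WT lungs. Whether this probe lies in the deleted part was not tested. The surfactant gene Sftpc, a marker of alveolar type 2 cells, was well above background on all 6 arrays at 8.51 ± 0.26 in KO and 8.08 ± 0.22 in WT (SD, n = 3 each). The share of the 41174 probes detected well above background ran from 68.9% to 78.0% by array, and the 75th percentile of the signal from 1086 to 2343. Arrays were scanned on 2 days, KO 1, KO 11 and WT 13 on day 1 and KO 12, WT 11 and WT 12 on day 2. The day 2 arrays shared slide 3, KO 1 and WT 13 shared slide 1, and KO 11 lay alone on slide 2. Day 2 against day 1 gave an unadjusted p under 0.05 for 27.7% of all genes and for 0 of the 10 members, in limma with genotype in the model.

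All 10 members had a lower mean in the KO lungs, where 47.8% of all genes did. The median difference of the 10 was -1.01, against 0.01 over all genes. In limma 0 members passed an adjusted p of 0.05, as did 0 of 20240 genes (0.0%). At an unadjusted p under 0.05 there were 190 genes in either direction (0.939%), and 3 members were among the 131 lower ones (0.647%): Ltf, Mmp9 and Cd177. At least 2-fold lower means were found in 5 members, S100a8, Mmp8, Mmp9, Cd177 and Csf3r, and in 1.23% of all genes. The KO and WT lungs did not overlap in Ltf and Lcn2, and 1.6% of all genes were lower without overlap. Every adjusted p of a member was 0.9998, so no difference below is a passed test.

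**Figure D1:**
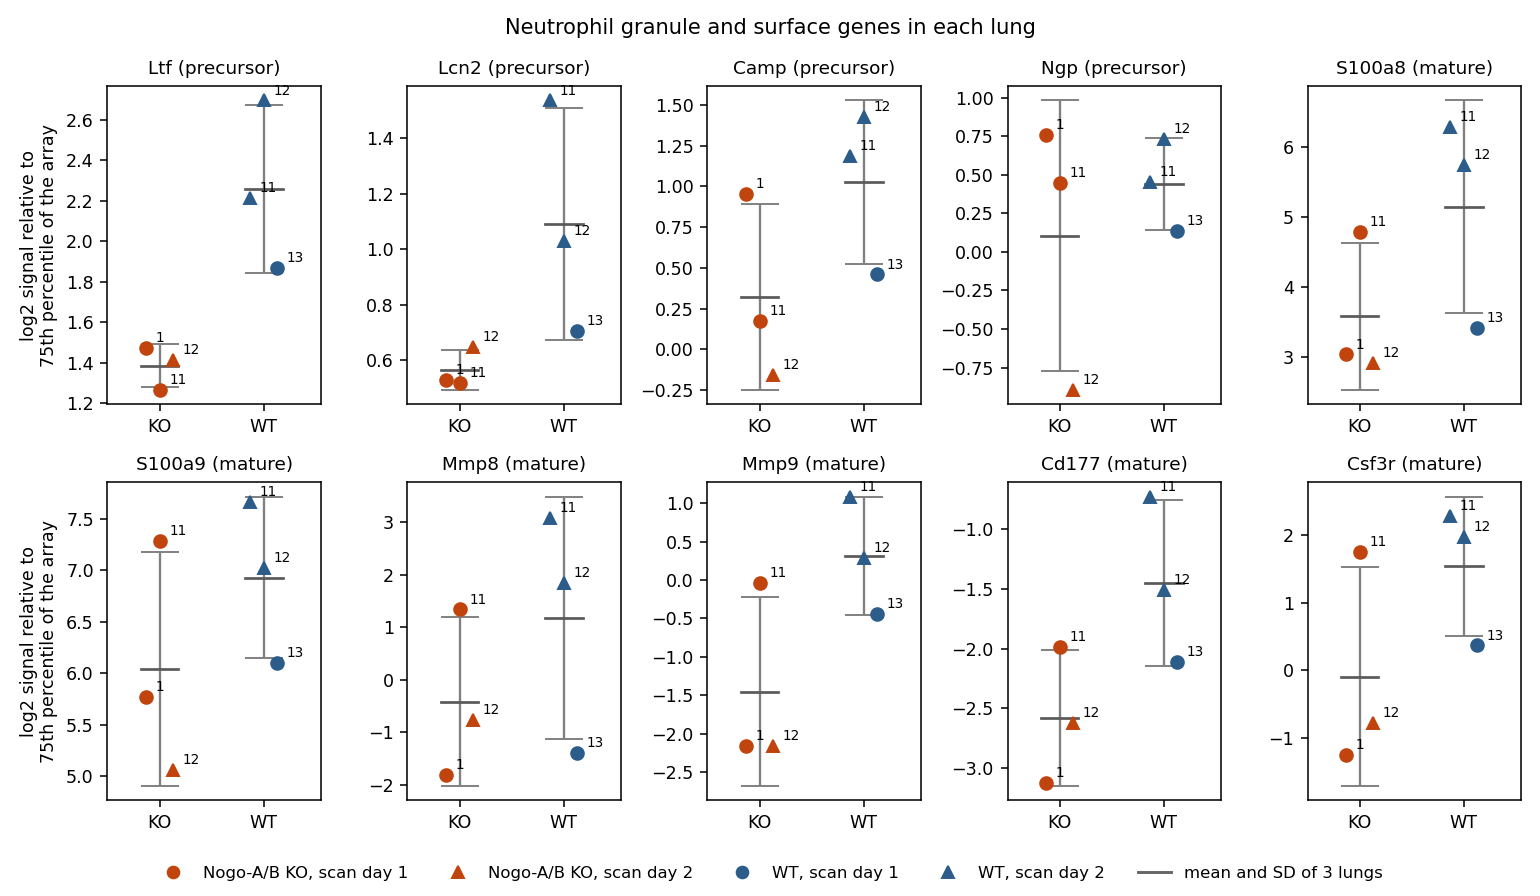
Log2 signal relative to the array's 75th percentile (vertical axes, a scale of its own for each gene) of the 10 genes in the 3 KO lungs (orange) and the 3 WT lungs (blue), with lung numbers beside the points, circles for scan day 1, triangles for scan day 2, and bars for the mean and SD of 3 lungs. Ltf and Lcn2 do not overlap between genotypes, while Ngp runs from -0.89 in KO 12 to 0.76 in KO 1 and encloses the WT lungs.

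Ltf encodes lactoferrin, the iron-binding protein of the specific granule, and airway and gland epithelium can make it too. Its level was 1.48, 1.27 and 1.42 in KO lungs 1, 11 and 12, against 2.21, 2.70 and 1.87 in WT lungs 11, 12 and 13. The KO lungs lay close together and all below the lowest WT lung, WT 13, by at least 0.39. The means were 1.39 ± 0.11 in KO and 2.26 ± 0.42 in WT (SD, n = 3 each), a log2 difference of -0.87 (SE 0.25, 95% confidence interval -1.47 to -0.28) at an unadjusted p of 0.0114 in limma. This was the smallest p among the members. Ltf has 2 probes on the array, shown here because they read different stretches of the same transcript and gave the same order of genotypes. The first lies on mm7 chr9:110738071-110738130 and the second spans chr9:110733462-110736512, more than its 60 bases, and so crosses at least 1 intron of the genomic sequence.

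Ltf probe A_52_P15388: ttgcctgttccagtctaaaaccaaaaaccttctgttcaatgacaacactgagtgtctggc
Ltf probe A_51_P188141: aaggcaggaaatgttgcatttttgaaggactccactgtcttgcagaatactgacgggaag

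The second probe had 0.42, 0.55 and 0.44 in KO lungs 1, 11 and 12, against 1.05, 1.43 and 0.81 in WT lungs 11, 12 and 13, again without overlap. Its difference was -0.63 (SE 0.21).

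Lcn2 encodes lipocalin 2, which binds bacterial siderophores and is also made by airway epithelium. Its level was 0.53, 0.52 and 0.65 in KO lungs 1, 11 and 12, against 1.54, 1.03 and 0.70 in WT lungs 11, 12 and 13. The groups did not overlap, but WT 13 lay only 0.06 above KO 12. The difference was -0.53 (SE 0.24, interval -1.12 to 0.07).

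Camp encodes cathelicidin, the precursor of an antimicrobial peptide. Its level was 0.95, 0.17 and -0.16 in KO lungs 1, 11 and 12, against 1.19, 1.43 and 0.46 in WT lungs 11, 12 and 13. KO 1 was above WT 13, and KO 11 and KO 12 were below all WT lungs. The difference was -0.70 (SE 0.38, interval -1.63 to 0.23). Its probe, on mm7 chr9:109544107-109544166, is printed as the one that read a granule peptide whose lungs overlapped.

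Camp probe A_51_P180423: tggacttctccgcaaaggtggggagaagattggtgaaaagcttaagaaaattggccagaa

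Ngp encodes neutrophilic granule protein, a cystatin-related protein of the same granule in the mouse. Its level was 0.76, 0.45 and -0.89 in KO lungs 1, 11 and 12, against 0.45, 0.73 and 0.13 in WT lungs 11, 12 and 13. Here KO 1 was the highest and KO 12 the lowest of all 6 lungs, and the difference of -0.34 (SE 0.45, interval -1.44 to 0.77) was the smallest among the members. Without KO 12 it was 0.16, with the opposite sign.

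S100a8 and S100a9 encode the 2 subunits of calprotectin, the metal-binding protein of neutrophil cytosol. S100a8 was at 3.03, 4.78 and 2.91 in KO lungs 1, 11 and 12, against 6.28, 5.73 and 3.42 in WT lungs 11, 12 and 13. Its groups overlapped through KO 11, which lay above WT 13. The means were 3.58 ± 1.05 in KO and 5.14 ± 1.52 in WT (SD, n = 3 each), a difference of -1.57 (SE 0.87, interval -3.68 to 0.55), or 2.96-fold lower in KO. The S100a8 probe, on mm7 chr3:90800058-90800117, is given because its lungs spanned a range of 3.37.

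S100a8 probe A_51_P256827: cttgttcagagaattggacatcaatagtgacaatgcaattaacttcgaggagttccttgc

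S100a9 was at 5.77, 7.29 and 5.06 in KO lungs 1, 11 and 12, against 7.67, 7.02 and 6.10 in WT lungs 11, 12 and 13. KO 11 stood above WT 12 and WT 13, and the difference was -0.89 (SE 0.66, interval -2.49 to 0.71). In both S100 genes KO 12 was the lowest lung and WT 11 the highest.

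Mmp8 and Mmp9 encode secreted metalloproteinases, neutrophil collagenase and gelatinase B. Mmp8 was at -1.82, 1.34 and -0.77 in KO lungs 1, 11 and 12, against 3.08, 1.85 and -1.40 in WT lungs 11, 12 and 13. The range over the 6 lungs was 4.90, larger than that of 99.2% of all genes, and WT 13 lay below KO 12. Its difference was -1.60 (SE 1.32, interval -4.80 to 1.61), with an SD over the lungs of 1.61 in KO and 2.31 in WT.

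Mmp9 was at -2.16, -0.03 and -2.17 in KO lungs 1, 11 and 12, against 1.09, 0.29 and -0.44 in WT lungs 11, 12 and 13. KO 1 and KO 12 were below all WT lungs, and KO 11 lay above WT 13. The means were -1.45 ± 1.23 in KO and 0.31 ± 0.76 in WT (SD, n = 3 each), a difference of -1.77 (SE 0.69, interval -3.44 to -0.09), or 3.40-fold lower in KO. A second Mmp9 probe, printed as 10 spots on each array, gave a difference of -1.72 (SE 0.72). Its spots on 1 array had an SD of 0.02 to 0.10, against 1.28 over the KO arrays and 0.81 over the WT arrays. Each lung had a single array, so the spread between lungs and that between arrays cannot be told apart.

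Cd177 encodes a surface glycoprotein of neutrophils and their precursors. Its level was -3.13, -1.99 and -2.63 in KO lungs 1, 11 and 12, against -0.72, -1.51 and -2.11 in WT lungs 11, 12 and 13. The groups overlapped by 0.12, where KO 11 was above WT 13. The difference was -1.13 (SE 0.44, interval -2.21 to -0.06), or 2.19-fold lower in KO.

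Csf3r encodes the receptor for granulocyte colony-stimulating factor, the cytokine that drives neutrophil production. Its level was -1.25, 1.76 and -0.78 in KO lungs 1, 11 and 12, against 2.28, 1.98 and 0.37 in WT lungs 11, 12 and 13. KO 11 again lay with the WT lungs, and the difference was -1.64 (SE 0.90, interval -3.83 to 0.56).

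Single lungs moved these values. Without WT 13 the difference of Mmp8 was -2.88 and without WT 11 it was -0.64, and those of S100a8 were -2.43 and -1.0. Csf3r ran from -2.56 without KO 11 to -1.05 without KO 1, and S100a9 from -1.51 without KO 11 to -0.40 without KO 12. Mmp9 ran from -2.48 to -1.38, Cd177 from -1.47 to -0.77, Camp from -1.02 to -0.46 and Lcn2 from -0.72 to -0.30. Ltf ran from -1.07 to -0.65. The 3 members at an unadjusted p under 0.05 in limma were 7 without WT 13, 5 without KO 11, 2 without KO 1, and Ltf alone without WT 11, WT 12 or KO 12. The share of all genes at that p was not counted for these fits, so the changes in count cannot be read as a result about the members.

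The order of the lungs was not the same in the 2 classes. WT 11 was the highest lung for 7 members, including all 6 genes of the mature class, and it was the highest for 13.2% of all genes. WT 11 or WT 12 was highest for 9 members, against 22.6% of all genes, and KO 12 was lowest for 5 members, against 12.7%. KO 11 was above WT 13 in all 6 mature genes, but it was the lowest of the 6 lungs for Ltf and Lcn2. KO 1 was lowest for Mmp8, Cd177 and Csf3r and highest for Ngp. The shares of all genes with KO 11 above WT 13, or with KO 11 or KO 1 at an end of the order, were not counted. These counts for KO 11 and KO 1 are therefore not read as a result about the members. Averaged over the 6 mature genes, each centred on its own mean, the level was -1.49, 0.63 and -1.29 in KO lungs 1, 11 and 12, against 1.72, 1.0 and -0.57 in WT lungs 11, 12 and 13. The same average over the 4 precursor genes was 0.03, -0.30 and -0.65 in KO lungs 1, 11 and 12, against 0.45, 0.57 and -0.11 in WT lungs 11, 12 and 13. Median differences were -1.58 for the mature and -0.61 for the precursor genes, and whether the classes differ was not tested.

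Because each scan day held both genotypes, the difference could be read within each day, with a single lung in 1 of the groups. Within day 2, KO 12 was lower than the 2 WT lungs in all 10 members, with a median difference of -1.90, where 39.8% of all genes were lower, and 9 members were at least 2-fold lower, where 2.55% of all genes were. Within day 1, KO 1 and KO 11 together were lower than WT 13 in 5 members and higher in the other 5, with a median of -0.01, where 54.6% of all genes were lower. On that day 0 members were at least 2-fold lower, where 3.39% of all genes were. The medians over all genes were 0.08 within day 2 and -0.04 within day 1.

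Ltf was lower on both days, by a log2 difference of -1.04 within day 2 and -0.50 within day 1. In that order of days, Mmp9 differed by -2.85 and -0.66, Cd177 by -1.51 and -0.45, Lcn2 by -0.64 and -0.18, and Csf3r by -2.91 and -0.12. The signs were opposite in the remaining 5, with Mmp8 at -3.24 within day 2 and 1.16 within day 1. Again day 2 before day 1, S100a8 had -3.10 and 0.49, S100a9 had -2.28 and 0.43, Ngp had -1.49 and 0.47, and Camp had -1.46 and 0.10. The interaction of genotype with scan day is given without the share of all genes with a negative value, which was not counted. It was negative for all 10 members, between -4.40 and -0.46, and this sign is therefore not read as a result about them. It had an unadjusted p under 0.05 for 3 members, Camp, Ngp and S100a8, where 4.03% of all genes had one in that direction and 11.5% in either, and 0 members passed after adjustment over all genes in limma (adjusted p between 0.378 and 0.626, with 0.0% of genes called). With scan day as a block in limma, the differences ranged from -1.76 for Mmp9 to -0.41 for Lcn2, and Ltf alone kept an unadjusted p under 0.05, where 1.31% of all genes were lower at that p. With slide as a fixed block there were 6 such members, Ltf, S100a8, S100a9, Mmp9, Cd177 and Csf3r, where 2.38% of all genes were. In that fit KO 11, alone on slide 2, added nothing to the difference, which rested on slides 1 and 3. With slide as a random block there were 5, the same without S100a9, and the share of all genes was not counted. In both slide fits 0 members passed an adjusted p of 0.05 in limma. Slide 3 held the day 2 arrays, so its differences are those given for day 2. Within slide 1, KO 1 was lower than WT 13 in 8 members, where 51.9% of all genes were lower, with a median of -0.39, and it was higher for Camp by 0.49 and for Ngp by 0.62.

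**Figure D2:**
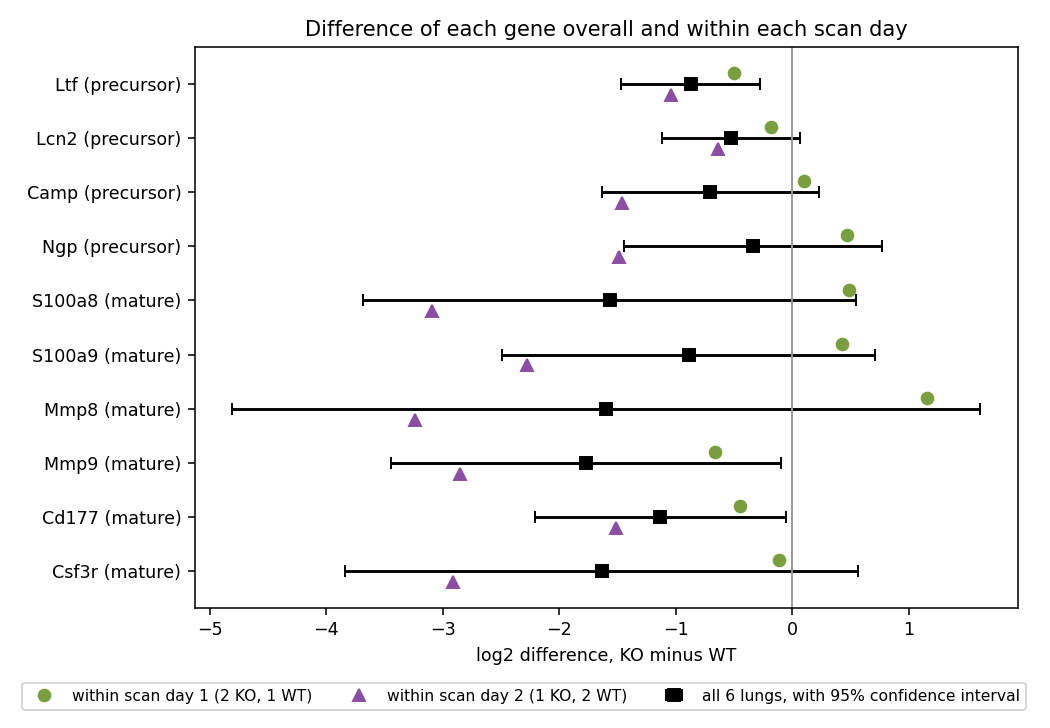
Log2 difference, KO minus WT, of each gene over all 6 lungs (black squares, with 95% confidence intervals from limma), within scan day 2 (purple triangles, 1 KO and 2 WT lungs) and within scan day 1 (green circles, 2 KO and 1 WT lung). All 10 triangles lie below 0, whereas 5 of the 10 circles lie above it.

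**Figure D3:**
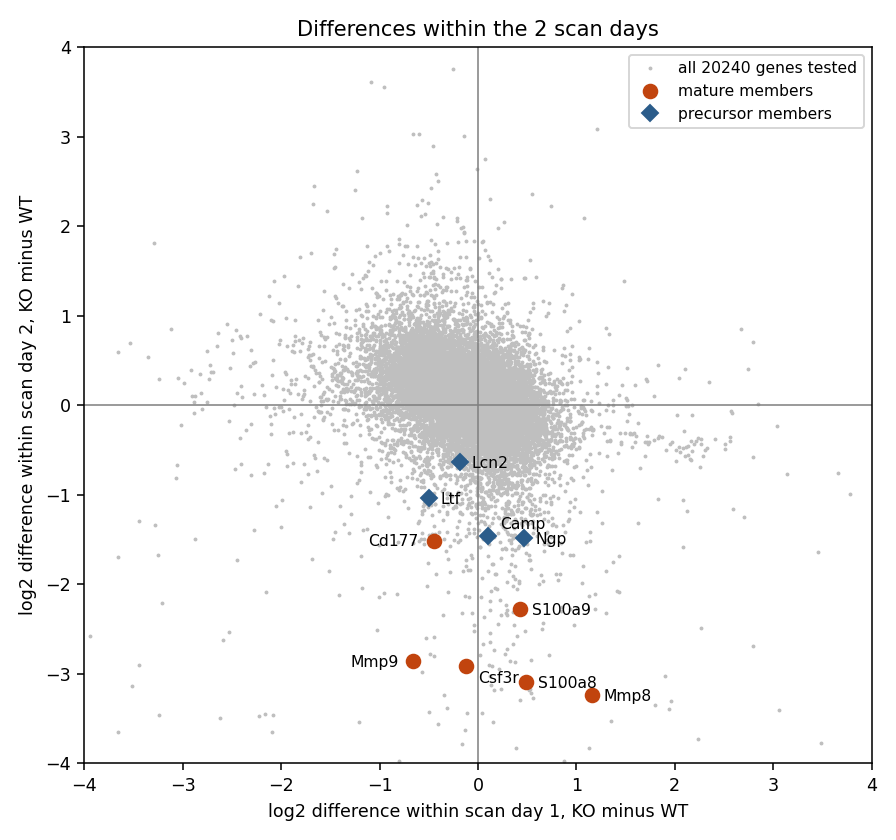
Each gene's log2 difference, KO minus WT, within scan day 1 (horizontal axis) and within scan day 2 (vertical axis), with all 20240 genes in grey, mature neutrophil members as orange circles and precursor members as blue diamonds. The members lie below most genes on the day 2 axis and on both sides of 0 on the day 1 axis, and 36 genes outside -4 to 4 are not drawn.

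Other neutrophil genes were taken from lists of cell types and functions. Their counts stand beside 47.8% of all genes lower in KO, 0.647% lower at an unadjusted p under 0.05 in limma, and 1.6% lower without overlap. Primary granule genes, the earliest of the series, were measured for 7 of 7, of which 6 were lower in KO with a median of -0.70. Mpo, the myeloperoxidase of that granule, was at -1.09, -1.04 and -1.09 in KO lungs 1, 11 and 12, against -0.40, 0.42 and -0.88 in WT lungs 11, 12 and 13. As in Ltf, the KO lungs lay together below all WT lungs. The difference of Mpo was -0.79 (SE 0.34). The serine proteases Prtn3, Ctsg and Elane differed by -0.62 (SE 0.23), -0.70 (SE 0.35) and -0.60 (SE 0.34), although Elane was above background in only 2 of 3 KO lungs. Mpo, Prtn3 and Prss57 did not overlap, Prtn3 by less than 0.01 in log2 level, and Prss57, above background in 2 of 3 KO lungs, was singled out after its values were seen. Prtn3 alone had an unadjusted p under 0.05. Gstm1, a glutathione transferase that lung cells also express, was higher in KO without overlap, by 0.32 (SE 0.16).

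Genes of neutrophil surface receptors and mediators were lower for 21 of 22 measured, with a median of -0.71, and 0 of them had an unadjusted p under 0.05. Of these 22, all were lower within day 2, where 39.8% of all genes were, and 2 within day 1, where 54.6% of all genes were. The monocyte genes read below had a median of -0.66, and which cells gave the signal of the surface list was not tested. Ly6g, the surface marker by which mouse neutrophils are usually sorted, was not analysed here because no probe carried that name. Cxcr2, the receptor through which neutrophils follow chemokines, was at -2.87, 0.42 and -3.33 in KO lungs 1, 11 and 12, against -0.35, -0.75 and -1.51 in WT lungs 11, 12 and 13. Here KO 11 was the highest lung of all, and the other KO lungs were the lowest. Il1b, the cytokine interleukin 1 beta, was at -1.32, 1.50 and -0.90 in KO lungs 1, 11 and 12, against 2.92, 2.04 and 0.41 in WT lungs 11, 12 and 13, the same order of lungs as for Cd177 and Csf3r. Its difference was -2.03 (SE 0.94).

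Among 17 measured genes of other granule and cytosolic proteins, 13 were lower and 4 higher, with a median of -0.98. At an unadjusted p under 0.05 in limma there were 4, all lower, where 0.647% of all genes were lower at that p. These were Olfm4, Itgb2l, Ceacam10 and Orm1, named here after their values were seen. Olfm4, a marker of a subset of neutrophils, was not well above background in any KO lung and was at least 1.97-fold lower in KO. It passed the filter of at least 3 of 6 arrays only through the WT lungs, so its direction and p are not read as support. The 3 brightest genes of that list, Lyz2, Hp and Chil3, were higher in KO by 0.43, 0.32 and 0.22. All 3 are also made by lung macrophages or epithelium. Whether this bears on their direction was not tested, nor was the cell source of the other listed genes. Of the 6 NADPH oxidase genes, 4 were lower, with a median of -0.37. Rac2, a GTPase of that complex, was at 1.33, 1.75 and 1.45 in KO lungs 1, 11 and 12, against 3.07, 2.65 and -3.66 in WT lungs 11, 12 and 13, so all KO lungs lay below WT 11 and WT 12 and far above WT 13, and the difference was 0.82 (SE 1.76).

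Signals that draw or make neutrophils were less uniform. Recruitment genes, the chemokines, cytokines and adhesion molecules that bring neutrophils into tissue, were measured for 11 of 13, with 7 lower, 4 higher and a median of -0.39. Cxcl1 was at -5.12, -1.95 and -3.37 in KO lungs 1, 11 and 12, against -3.18, -3.44 and -2.63 in WT lungs 11, 12 and 13. KO 1 was the lowest lung and KO 11 the highest. Cxcl2 and Cxcl5, further ligands of Cxcr2, were above background in KO 11, KO 12 and all WT lungs but not in KO 1. No array detected Csf3, the ligand of Csf3r, well above background. Transcription factors of granulopoiesis had a median of -0.06 over 7 measured genes, with Cebpa at 0.08 (SE 0.19), Gfi1 at -0.06 (SE 0.23) and Spi1, which encodes PU.1, at -0.52 (SE 0.43).

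Markers of other cells were read in the same lungs, and their part in the members' differences was not tested. Monocyte genes were lower for 7 of 9 measured, with a median of -0.66, and their mean centred level ran from -0.59 to -0.03 in KO lungs and from -0.03 to 0.55 in WT lungs. Platelet genes were lower for 8 of 8, with a median of -0.78, where 47.8% of all genes were lower. At an unadjusted p under 0.05 in limma there were 6, where 0.647% of all genes were lower at that p. Their mean centred level ran from -0.65 to -0.18 in KO lungs and from 0.22 to 0.50 in WT lungs, without overlap. Pf4, a platelet chemokine, was at 3.56, 3.43 and 3.10 in KO lungs 1, 11 and 12, against 4.54, 4.09 and 4.06 in WT lungs 11, 12 and 13, and differed by -0.56 within day 1 and -1.22 within day 2. The median of the platelet genes was negative on both days, at -0.49 within day 1 and -1.14 within day 2.

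Red cell genes did not share that direction. Of 6 measured, 3 were lower and 3 higher, with a median of 0.06, and the alpha globin gene Hba-a1 was higher in KO by 0.48 (SE 0.27). Airway and gland genes were lower for 7 of 9, with a median of -1.61, where 47.8% of all genes were lower. Their mean centred level ran from -2.64 in KO 1 to -0.01 in KO 11, against 0.54 to 1.43 in WT lungs, also without overlap. Their order of KO lungs, KO 1 lowest and KO 11 highest, was that of the mature members, while in the precursor members KO 1 was the highest of the 3. The 4 airway genes at an unadjusted p under 0.05 in limma were Bpifb1, Reg3g, Tff2 and Agr2, named after their values were seen. At that p 0.647% of all genes were lower. Reg3g, part of the list's mean level, was at -8.04 in KO 1 and above background in 2 of 3 KO lungs. The 3 brightest genes of the list, Scgb1a1, Scgb3a2 and Scgb3a1, differed by 0.29 (SE 0.23), 0.32 (SE 0.42) and -2.87 (SE 1.19). Foxj1 differed by -0.08 (SE 0.16). Alveolar macrophage, eosinophil and mast cell, T cell, B cell and parenchymal lists had medians of -0.02, -0.24, 0.10, 0.50 and 0.11, and 0 genes of any list passed an adjusted p of 0.05 in limma.

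**Figure D4:**
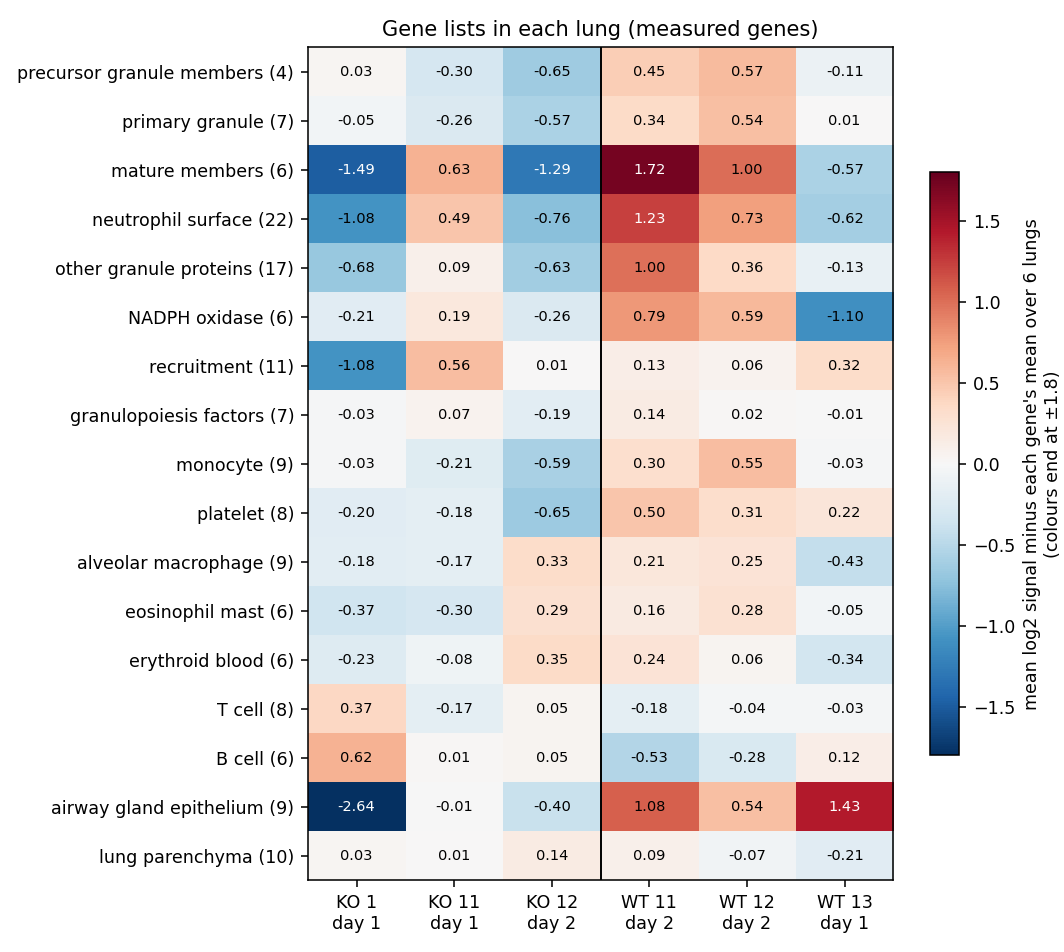
Mean over each list's measured genes (number in brackets) of the log2 signal minus the gene's own mean over 6 lungs, with KO lungs left of the line and WT lungs right of it, blue for low and red for high. Mature members and surface genes share high values in WT 11, WT 12 and KO 11, whereas precursor members, primary granule and platelet genes are at or below 0.03 in all KO lungs.

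Genes whose lungs followed the mean of the 10 members were sought among the other 20230 genes by root mean square distance over the 6 centred log2 values. The nearest were Igsf6 at 0.12, Mmp25 at 0.15, Lilra6 at 0.16 and Pla2g7 at 0.17, followed by a probe with no gene name at 0.18, against a median distance of 0.91. The members themselves lay farther from that mean, from 0.28 for Cd177 to 1.07 for Mmp8. The precursor genes lay between 0.59 for Lcn2 and 0.72 for Ngp, so the mean is not a profile that all 10 share. Mmp25 encodes a membrane-anchored metalloproteinase of neutrophils. Igsf6, an immunoglobulin superfamily gene, was at -0.85, 0.58 and -0.61 in KO lungs 1, 11 and 12, against 1.39, 1.08 and -0.24 in WT lungs 11, 12 and 13, with KO 11 above WT 13 as in the mature members.

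Promoter windows of 250 bases before to 50 after the start, from RefSeq on GRCm38, were at hand for 9 of the 10 members. They were searched on both strands for the core of C/EBP sites, TTGCNNAA, and of PU.1 sites, GAGGAA, because factors of these families act on granule genes. Neither pattern contains the other. The C/EBP core was found in 5 of 9, Ltf, Lcn2, Ngp, S100a9 and Mmp8, against 10.8% of 27025 promoters, and the PU.1 core in 6 of 9, Ltf, Lcn2, S100a8, Mmp8, Cd177 and Csf3r, against 28.3%. A match is a run of letters and not a shown binding site. The 4 windows follow with the matches in capitals. Ltf and Ngp are shown as precursor genes whose KO lungs were together and apart, and S100a8 and Mmp8 as mature genes with wide ranges. The windows are chr9:111019042-111019341 for Ltf, chr9:110419558-110419857 for Ngp, chr3:90668821-90669120 for S100a8 and chr9:7558179-7558478 for Mmp8, all on the plus strand.

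Ltf promoter: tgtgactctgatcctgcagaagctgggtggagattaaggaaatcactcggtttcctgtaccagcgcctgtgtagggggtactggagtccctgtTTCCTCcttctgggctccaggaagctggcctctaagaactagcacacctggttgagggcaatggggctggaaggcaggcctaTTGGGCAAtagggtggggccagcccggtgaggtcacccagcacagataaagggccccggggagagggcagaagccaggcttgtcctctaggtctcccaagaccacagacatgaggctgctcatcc
Ngp promoter: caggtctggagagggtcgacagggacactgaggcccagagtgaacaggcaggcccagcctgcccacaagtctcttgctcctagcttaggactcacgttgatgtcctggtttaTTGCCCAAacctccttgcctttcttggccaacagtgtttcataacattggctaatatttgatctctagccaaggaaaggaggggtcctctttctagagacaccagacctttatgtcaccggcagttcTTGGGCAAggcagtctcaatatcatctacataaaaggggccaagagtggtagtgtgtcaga
S100a8 promoter: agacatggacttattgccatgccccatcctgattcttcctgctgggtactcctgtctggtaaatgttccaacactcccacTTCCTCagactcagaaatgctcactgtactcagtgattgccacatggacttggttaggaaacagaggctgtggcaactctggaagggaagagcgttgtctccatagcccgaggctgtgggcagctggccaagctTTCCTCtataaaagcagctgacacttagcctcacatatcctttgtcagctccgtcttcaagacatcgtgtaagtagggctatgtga
Mmp8 promoter: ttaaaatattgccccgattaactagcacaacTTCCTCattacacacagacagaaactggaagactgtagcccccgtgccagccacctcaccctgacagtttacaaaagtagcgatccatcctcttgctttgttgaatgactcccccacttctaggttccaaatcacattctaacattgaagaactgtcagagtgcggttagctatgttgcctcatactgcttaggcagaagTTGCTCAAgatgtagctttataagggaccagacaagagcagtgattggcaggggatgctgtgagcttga

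Counted from the start, the C/EBP core of Ltf begins at -75 and its PU.1 core at -157. Ngp holds C/EBP cores at -138 and -11 and no PU.1 core. S100a8 holds PU.1 cores at -170 and -36 and no C/EBP core, and Mmp8 has a C/EBP core at -19 and a PU.1 core at -219. Both patterns occur in Ltf and in Mmp8, and whether they bear on the differences between the lungs was not tested.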

How the data were processed

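Whole-lung RNA of 3 KO and 3 WT mice was measured on 1-colour Agilent arrays (design 014868). Each deposited scanner file gives every spot's intensity as a processed signal that, per the file headers, version 9.5.1.1 of Feature Extraction had background-subtracted (9.1 in the submitters' processing notes). The authors' own table of log2 values, with array medians of 8.087 to 8.090, served as an alternative, and its scaling is not stated. Probe positions are on mm7 per the file headers.

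From the 43379 spots that were not controls, those flagged as outliers were dropped and replicate spots averaged, which left 30 probes without a value on some array. Processed signals were divided by each array's 75th percentile and log2-transformed. A gene was its brightest probe among those well above background on at least 3 of 6 arrays. Names came from the annotation table for 32735 probes and from the arrays for 8439. Genotype was fitted over 20240 genes with limma 3.58.1 (lmFit and eBayes, two-sided, Benjamini-Hochberg) in R 4.3.3, which was also tested on simulated data. The number of arrays limits precision.

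The 10 members and the 15 other gene lists were chosen with earlier results of these data known. Beside the members, the text may name the 3 brightest genes of each list, a fixed set of genes such as Mpo and Cxcr2, and the 5 genes nearest to the members' mean. There were 21 alternatives. Promoters came from RefSeq tables on GRCm38, and no genome was used.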

Additional observations from a re-analysis of the deposited data

How the results depend on the processing

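Over 21 alternatives and 1 more chosen after seeing the data (within slide 1, values with no test), 212 of 220 differences of members kept their direction. In the 21, 0 members passed an adjusted p of 0.05, with adjusted p values between 0.162 and 0.99999. The 8 that turned were Camp at 0.10, Ngp at 0.47, S100a8 at 0.49, S100a9 at 0.43 and Mmp8 at 1.16 within scan day 1, Camp at 0.49 and Ngp at 0.62 within slide 1, and Ngp at 0.16 without KO 12, in a range of -0.66 to 0.16 with 1 lung left out. Within scan day 1 the median of the members was -0.0069 and 5 members were lower, and within scan day 2 the median was -1.90. With 1 lung left out the median ran from -1.47 to -0.71 and 9 to 10 members were lower. The count of genes past an adjusted p of 0.05, 0 in the report, was 1 under normexp background correction, 1 on the authors' values, 1 with trended and robust variances, 2 under median scaling, 2 with slide as a random block, 2 with array weights and 0 to 1 with 1 lung left out, where the 1 came without KO 1. A replicate block on the shared lung number gave a median of -1.25 and 0 genes past that threshold, and it changed no call. It rests on lungs 11 and 12 of each genotype, since KO 1 and WT 13 have no partner. Same-numbered lungs deviated with correlations of -0.25 for number 11 and 0.42 for number 12. KO 12 and WT 12 shared a slide and a scan day, whereas KO 11 and WT 11 did not. These correlations therefore cannot show whether lungs were paired, and the main fit used no pairing. Of the members, 1 to 7 were lower at an unadjusted p under 0.05 in the limma fits over both days. The share of all genes at that p was not counted for most of these fits, so this range is not a result about the members. The causes were not tested. Each scan day leaves 1 lung in a group.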
